A study of Mus musculus with 9 samples.

Results

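Malat1 and Neat1, a pair of long noncoding RNAs that stay in the nucleus, were followed through islets of pregnant and virgin mice. They were found by gene name in the deposited table of transcript levels, and every line that carried either name was taken. That gave 2 genes of 10706 and 11 transcript rows of 25895, 5 for Malat1 and 6 for Neat1. Pancreatic islets, the clusters of hormone-secreting cells of the pancreas, had been isolated from female mice in pregnancy, at the gestational stage labelled GD14.5 (4 libraries, numbered 1 to 4), and from virgin females (5 libraries, numbered 1 to 5), and their bulk RNA was sequenced. All animals were untreated as far as the labels say, and the labels give no strain, no age and no number of animals behind a library. The p-values therefore measure the spread between these libraries, which may be technical.

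Malat1 gathers in nuclear speckles, the bodies where splicing factors are stored, and is among the most abundant nuclear RNAs of many mammalian tissues. Neat1 is the scaffold of paraspeckles, nuclear bodies that hold RNA-binding proteins and some RNAs. The Neat1 gene makes a short RNA, which ends in a poly(A) tail, and a long RNA that starts at the same promoter and builds the paraspeckle. The mature ends of Malat1 and of long Neat1 are unusual. RNase P, the enzyme that trims transfer RNA precursors, cuts the transcript, and the new end carries no poly(A) tail but is protected by a triple helix in which an A-rich tract lies between U-rich motifs. The piece that RNase P cuts from Malat1 is a small RNA folded like a transfer RNA, called mascRNA. The libraries here were enriched on oligo(dT) beads, per the labels' protocols, and how that step treats these ends was not tested.

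Both genes lie on chromosome 19 and are read from the minus strand. RefSeq places Malat1 at chr19:5795690-5802672 on GRCm38.p6, a span of 6983 bases with 1 transcript, and Neat1 at chr19:5824708-5845480, a span of 20773 bases with 2 transcripts. Between the genes lie 22035 bases. GENCODE M21 lists 4 transcripts for each gene. The longest Malat1 transcript is 1 unspliced exon of 6983 bases, and the other 3 are spliced RNAs of 556, 656 and 485 bases. Long Neat1 is unspliced at 20771 bases. The transcript called short Neat1 here measures 3004 bases, is listed with 2 exons and starts 2 bases further in. The remaining 2 transcripts are spliced and measure 1030 and 711 bases. Every exon base of the shorter transcripts also lies inside the longest transcript of its gene. A sequenced fragment from those bases therefore fits more than 1 transcript, and its assignment follows software that the sources used here do not name.

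**Figure D1:**
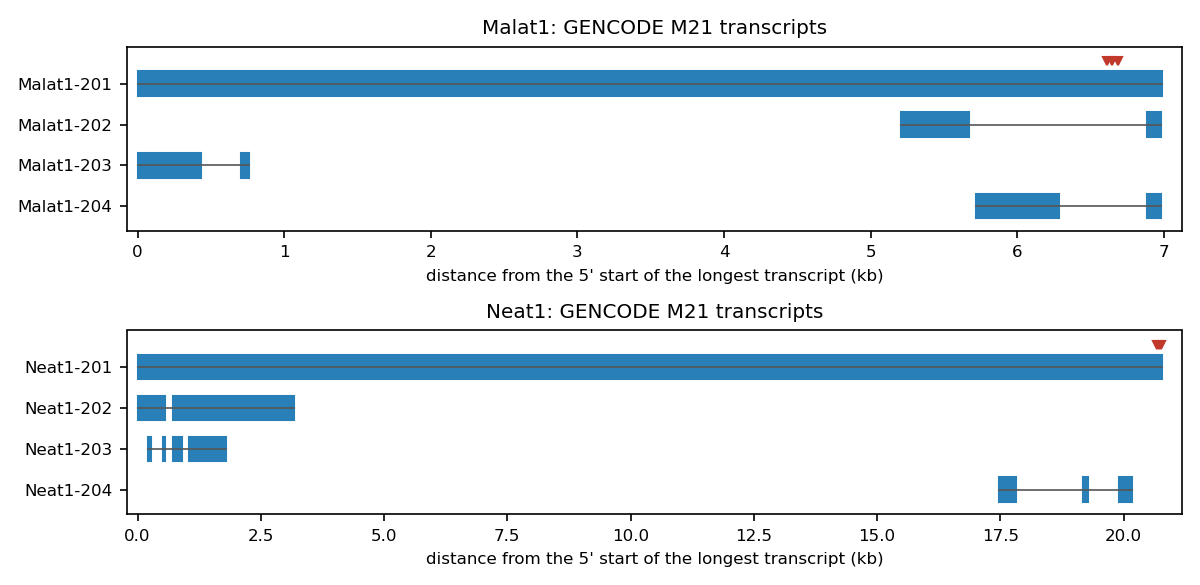
Transcripts of Malat1 and Neat1 in GENCODE M21, drawn 5′ to 3′ with the distance from the start of the longest transcript in kb on the horizontal axis. Blue boxes are exons, grey lines are introns, and red triangles mark the 3 runs of bases shared by the ends of the longest transcripts; each shorter transcript falls within the longest one.

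The ends of the transcripts are shown because they separate the RNAs that lack a poly(A) tail from those that carry 1. Within the last 400 bases of the longest Malat1 transcript and of long Neat1, 3 runs of at least 10 bases occurred in both, in the same order, and these are in capitals in the first pair of lines. In the other pair, capitals mark AATAAA, the usual signal for adding a poly(A) tail. Sequences come from GENCODE M21 transcripts on GRCm38 and are written in the direction of transcription.
Malat1, RNase P site, chr19:5795922-5796075, minus strand: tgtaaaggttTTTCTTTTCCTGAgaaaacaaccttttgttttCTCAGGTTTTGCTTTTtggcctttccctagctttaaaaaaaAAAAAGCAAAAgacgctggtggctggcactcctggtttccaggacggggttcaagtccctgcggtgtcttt
Long Neat1, end, chr19:5824708-5824807, minus strand: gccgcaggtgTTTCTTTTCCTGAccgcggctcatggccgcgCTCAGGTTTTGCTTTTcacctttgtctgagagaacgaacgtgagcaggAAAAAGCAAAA
Malat1, annotated end, chr19:5795690-5795749, minus strand: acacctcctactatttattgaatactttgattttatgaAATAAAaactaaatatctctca
Short Neat1, end, chr19:5842307-5842366, minus strand: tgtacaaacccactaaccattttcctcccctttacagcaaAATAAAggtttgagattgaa

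The shared runs are 13, 16 and 11 bases long and hold the U-rich motifs and the A-rich tract of the triple helix. The last of them closes long Neat1 with 0 bases after it, whereas 292 bases of the annotated Malat1 transcript follow it. The bases directly after it in the Malat1 line belong to mascRNA. Among 16980 GENCODE long noncoding transcripts of at least 400 bases, TTTCTTTTCCTGA occurred in the last 400 bases of 2 (0.0118%), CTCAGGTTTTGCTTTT in 2 (0.0118%) and AAAAAGCAAAA in 27 (0.159%). The transcripts with all 3 were Malat1 and long Neat1, from which the runs had been taken. AATAAA began 22 bases from the annotated end of Malat1 and 20 bases from the end of short Neat1, and 5064 of the 16980 transcripts (29.8%) held it in their last 40 bases. Only the transcribed strand was searched, and a match describes the letters and is no evidence of processing at that place.

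The deposited table gives no transcript identifier, and its 5 Malat1 and 6 Neat1 rows outnumber the 4 transcripts that GENCODE lists for each gene. Rows could therefore not be matched to the transcripts drawn here, and they are called row 1 to row 5 of Malat1 and row 1 to row 6 of Neat1 in the order of the table. Levels are FPKM, fragments divided by the length of the transcript and the fragments of the library. That corrects for length, but not for the assignment of fragments or the capture of ends on oligo(dT) beads. Comparisons between genes and rows are therefore of the listed values.

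The summed FPKM of the table differed between libraries by 2.26-fold at GD14.5 and 3.79-fold among virgin islets. GD14.5 replicate 4 and virgin replicates 4 and 5 had the highest sums, at 14636, 18252 and 20531, against 5415 to 10689 in the other 6 libraries. These 3 libraries also had the highest Malat1, and results are given with and without them where they move. The number of sequenced fragments is unknown, because the smallest value above 0 was 0.01 FPKM in every library, the rounding step of the table. Of 46 marker genes of islet and other pancreatic cell types, 3 were in the table, none above 0.01 FPKM, so the islet identity of the libraries was not checked here. In bulk RNA, fewer cells of a type and less RNA per cell cannot be told apart.

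Malat1 had the highest level of all loci of the table in all 9 libraries. The table lacks most of the coding genes looked up here, the pancreatic markers among them. Places and shares within it are therefore not those among all islet RNAs. Its 5 rows summed to 1258, 1465, 1345 and 3325 FPKM in GD14.5 replicates 1 to 4, against 954, 1834, 1178, 4622 and 4746 FPKM in virgin replicates 1 to 5. GD14.5 replicate 4 and virgin replicates 4 and 5 stood above all others, and the groups overlapped. The means were 1848 ± 988 FPKM at GD14.5 (SD, n = 4) and 2667 ± 1870 FPKM in virgin islets (SD, n = 5). The locus in second place was Gm51621 in 7 libraries and Gm33272 in GD14.5 replicate 1 and virgin replicate 5. Malat1 exceeded it by 1.21-fold to 8.73-fold at GD14.5 and by 1.53-fold to 8.10-fold in virgin islets.

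Neat1 was 10.6-fold to 15.8-fold lower than Malat1 at GD14.5 and 13.3-fold to 29.3-fold lower in virgin islets. Its 6 rows summed to 88.0, 118, 127 and 211 FPKM in GD14.5 replicates 1 to 4, against 71.7, 130, 40.2, 325 and 196 FPKM in virgin replicates 1 to 5. The lowest and the highest library were both virgin, replicates 3 and 4, and all 4 GD14.5 libraries lay between them. The means were 136 ± 52.5 FPKM at GD14.5 (SD, n = 4) and 153 ± 113 FPKM in virgin islets (SD, n = 5). Neat1 took place 3 or 4 among all loci of the table at GD14.5, and place 3 to 12 in virgin islets.

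**Figure D2:**
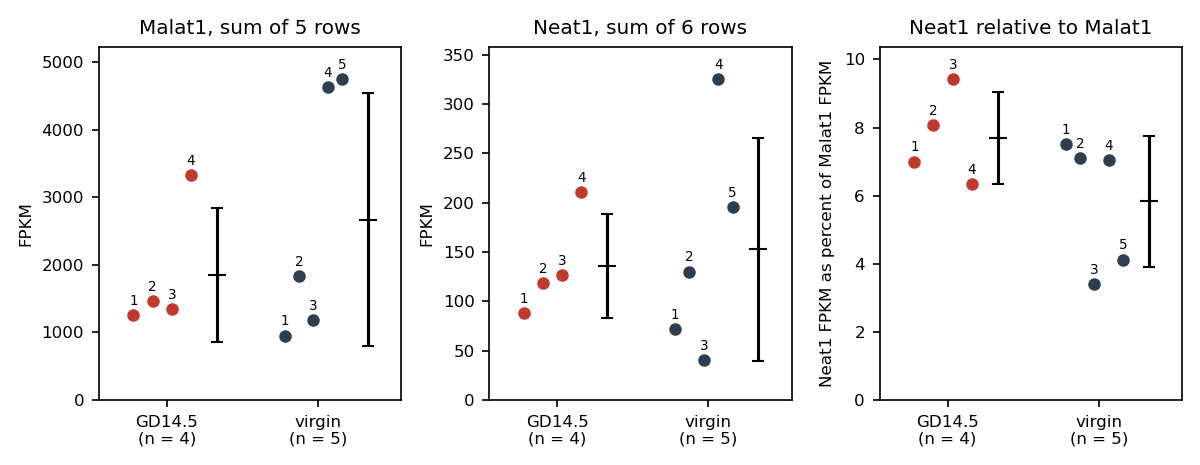
Summed FPKM of Malat1 (left) and Neat1 (middle) and Neat1 as a percent of Malat1 (right) in each library, with the replicate number above each point; red points are GD14.5 (n = 4), dark points are virgin (n = 5), and bars give the mean ± SD. The groups overlap in all 3 panels, and the virgin libraries spread over a wider range, from 954 to 4746 FPKM for Malat1 and from 40.2 to 325 FPKM for Neat1.

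A fit with limma on log2(FPKM + 0.5) over all 2377 tested loci, with Benjamini-Hochberg adjustment, asked whether either RNA differed between pregnant and virgin islets. It called 4 loci (0.168%) at an adjusted p under 0.05, and neither Malat1 nor Neat1 was among them. Malat1 at GD14.5 stood at −0.34 ± 0.54 on the log2 scale relative to virgin (SE, limma adjusted p = 0.819), with a 95% interval from −1.47 to 0.79, that is, a fold of 0.362 to 1.73. For Neat1 it was 0.12 ± 0.63 (SE, limma adjusted p = 0.929), with an interval from −1.18 to 1.41, that is, a fold of 0.440 to 2.66. The fit does not exclude differences inside these intervals, and the ends of the intervals are not limits of detection.

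The scale of the libraries mattered for these fold changes. The median log2 fold change over all tested loci was −0.30 on the deposited scale, so Malat1 at −0.34 lay close to it. Once every library was set to the same median, the median over all loci was −0.03, and Malat1 stood at 0.03 ± 0.21 (SE, limma adjusted p = 0.980), with an interval from −0.45 to 0.52. On that scale Neat1 stood at 0.49 ± 0.32 (SE, limma adjusted p = 0.658), with an interval from −0.24 to 1.22. That fit called 29 loci (1.22%), again neither of them. Over the whole table, the groups did not overlap in level for 14 loci (0.589%), and both RNAs were outside these. With the replicate number as a block, 26 loci were called (1.09%), and the log2 fold changes were −0.05 for Malat1 (limma adjusted p = 0.943) and 0.29 for Neat1 (limma adjusted p = 0.770).

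The direction for Neat1 on the deposited scale rested on single libraries. It was −0.12 without GD14.5 replicate 4, −0.07 without virgin replicate 1 and −0.27 without virgin replicate 3. Without the 3 libraries of highest summed FPKM it was 0.60, and Malat1 then stood at 0.09, with limma adjusted p-values of 1.00 for both.

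**Figure D3:**
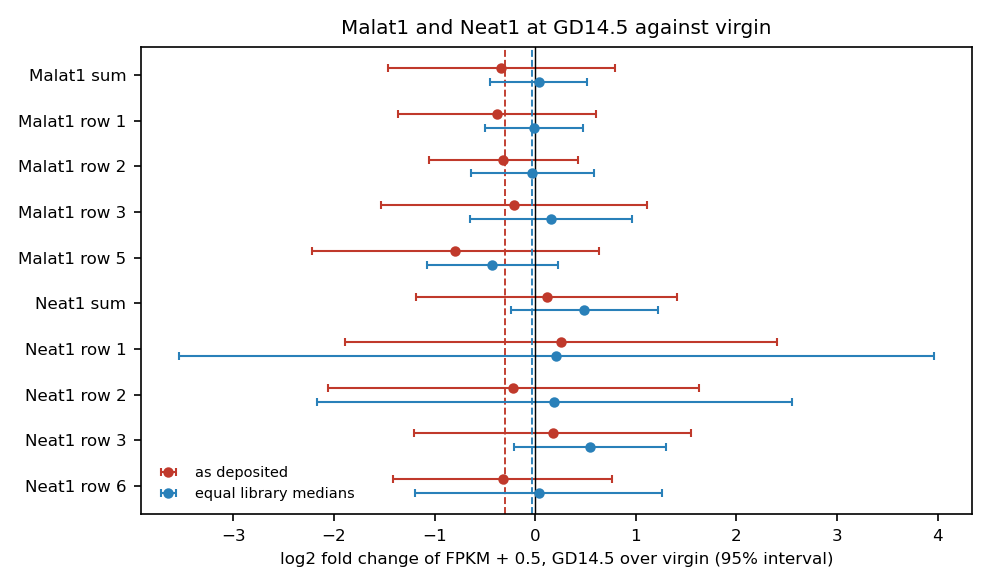
Log2 fold change of FPKM + 0.5, GD14.5 over virgin, for the sums of Malat1 and Neat1 and for each tested row, with 95% intervals from limma. Red is the deposited scale and blue the scale of equal library medians, and dashed lines give the median over all tested loci on each scale, −0.30 and −0.03; every interval spans 0.

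The ratio of Neat1 to Malat1 within a library does not depend on the scale of that library. Neat1 equalled 7.0%, 8.07%, 9.42% and 6.33% of the Malat1 level in GD14.5 replicates 1 to 4, against 7.52%, 7.10%, 3.41%, 7.04% and 4.12% in virgin replicates 1 to 5. Virgin replicates 3 and 5 had the lowest ratios, and the remaining virgin libraries lay within the GD14.5 range. The means were 7.71 ± 1.35% at GD14.5 (SD, n = 4) and 5.84 ± 1.92% in virgin islets (SD, n = 5). On the log2 scale, GD14.5 was higher by 0.46, a fold of 1.37, and the difference did not pass a two-sided exact permutation test (p = 0.214), in which 126 divisions of the libraries allow a p of 0.00794 at the smallest. Between same-numbered libraries the log2 ratio at GD14.5 minus virgin was −0.10, 0.19, 1.47 and −0.15 for numbers 1 to 4, so the sign was divided and number 3 gave most of the difference. The exact sign-flip test over these 4 pairs gave p = 0.625, where 0.125 is the smallest it allows.

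The share of the whole table's FPKM is a second measure within the library. Malat1 made up 19.4%, 17.7%, 16.6% and 22.7% of it in GD14.5 replicates 1 to 4, against 17.6%, 17.2%, 17.1%, 25.3% and 23.1% in virgin replicates 1 to 5. While the level of Malat1 differed up to 4.97-fold within a group, its share differed at most 1.48-fold. Malat1 is part of the sum it is divided by, which by itself narrows the range of its share. The groups overlapped in this share (log2 difference −0.06, two-sided exact permutation p = 0.738). Relative to the sum of the tested loci other than Malat1 and Neat1, the log2 difference was −0.07. Neat1 made up 1.36%, 1.43%, 1.57% and 1.44% at GD14.5, against 1.32%, 1.22%, 0.581%, 1.78% and 0.952% in virgin islets. The 4 GD14.5 shares of Neat1 lay within 1.15-fold of each other, and the 5 virgin shares spread over 3.07-fold on both sides of them. The log2 difference of 0.40 did not pass the test (two-sided exact permutation p = 0.262). Adjusted over these 3 permutation tests by Benjamini-Hochberg, p was 0.393 for the ratio, 0.738 for the Malat1 share and 0.393 for the Neat1 share. Among the alternatives run it passed only without virgin replicate 4, the virgin library of highest Neat1 share, at 0.57 (two-sided exact permutation p = 0.0286, unadjusted). The Neat1 share differed by 0.17 without virgin replicate 3. Without the 3 libraries of highest summed FPKM it differed by 0.56 (two-sided exact permutation p = 0.1), and the groups did not overlap. So few libraries cannot give a p under 0.05 in that test.

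Rows 1 and 3 together made up 97.9% to 99.0% of the Malat1 level in every library. Row 1 had 634, 675, 629 and 1030 FPKM in GD14.5 replicates 1 to 4, against 502, 998, 728, 1068 and 1934 FPKM in virgin replicates 1 to 5. Row 3 had 612, 775, 698 and 2244 FPKM at GD14.5, against 442, 800, 427, 3489 and 2713 FPKM in virgin islets. Row 3 thus ranged more widely than row 1, and both were high in the libraries of highest summed FPKM. Row 5 came next at 23.6 ± 18.4 FPKM at GD14.5 (SD, n = 4) and 45.6 ± 35.0 FPKM in virgin islets (SD, n = 5). Row 2 reached 0.83 FPKM at GD14.5 and 1.30 FPKM in virgin islets at most, and row 4 reached 0.46 FPKM in either group and was under the limit of 0.5 FPKM for the test.

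The balance of the leading Malat1 rows varied between libraries more than between groups. Row 3 was 0.965, 1.15, 1.11 and 2.18 times row 1 in GD14.5 replicates 1 to 4, against 0.882, 0.802, 0.586, 3.27 and 1.40 times in virgin replicates 1 to 5. GD14.5 replicate 4 and virgin replicates 4 and 5 had the highest ratios. In these 3 libraries row 1 took 23.1% to 40.7% of Malat1 and row 3 took 57.2% to 75.5%, against 46.1% to 61.8% and 36.2% to 52.9% in the other 6. That grouping was noticed in the data and carries no test, and the part of library scale in it was not tested. By group, row 1 took 43.5 ± 8.59% at GD14.5 (SD, n = 4) and 46.5 ± 15.1% in virgin islets (SD, n = 5), and row 3 took 55.2 ± 8.36% and 51.8 ± 15.2%.

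A single row held most of Neat1. Row 3 had 58.7, 109, 117 and 197 FPKM in GD14.5 replicates 1 to 4, against 43.0, 108, 35.8, 290 and 185 FPKM in virgin replicates 1 to 5. It made up 82.7% to 94.5% of Neat1 in the 7 libraries not numbered 1, but 66.7% in GD14.5 replicate 1 and 59.9% in virgin replicate 1. Row 6 was the next steady row, at 10.7, 8.47, 7.13 and 5.33 FPKM at GD14.5, against 10.7, 17.4, 4.18, 12.1 and 8.96 FPKM in virgin islets. Its order over the libraries differed from that of row 3, and its share was 12.1%, 7.17%, 5.63% and 2.53% at GD14.5, against 14.9%, 13.4%, 10.4%, 3.72% and 4.58% in virgin islets. The share of row 6 was lowest in the 3 libraries of highest summed FPKM, at 2.53% to 4.58%, against 5.63% to 14.9% in the others.

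Row 1 of Neat1 was present in 1 library of each group. It had 18.1 FPKM in GD14.5 replicate 1, against 17.7 FPKM in virgin replicate 1, and it was listed at 0 to 0.03 FPKM in the other 7. It made up 20.5% of Neat1 in GD14.5 replicate 1 and 24.7% in virgin replicate 1. With rows 1 and 3 added, these libraries came to 87.2% and 84.7%, within the 82.7% to 94.5% of the others. Of 2548 rows tested, row 1 of Neat1 was the 1 row at least 10-fold higher in both libraries numbered 1 than in every other library, a search made after its values were seen. The same search found 0 rows for number 2, 0 for number 3 and 1 for number 4 (Gm42270). The labels name no batch, and what libraries of the same number share was not tested.

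Of the remaining Neat1 rows, row 2 ranged from 0.18 to 7.29 FPKM at GD14.5 and from 0 to 22.1 FPKM in virgin islets, highest in GD14.5 replicate 4 and virgin replicate 4. Rows 4 and 5 stayed at or under 0.40 FPKM at GD14.5 and 0.79 FPKM in virgin islets, and their means over the 9 libraries were under the limit for the test.

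**Figure D4:**
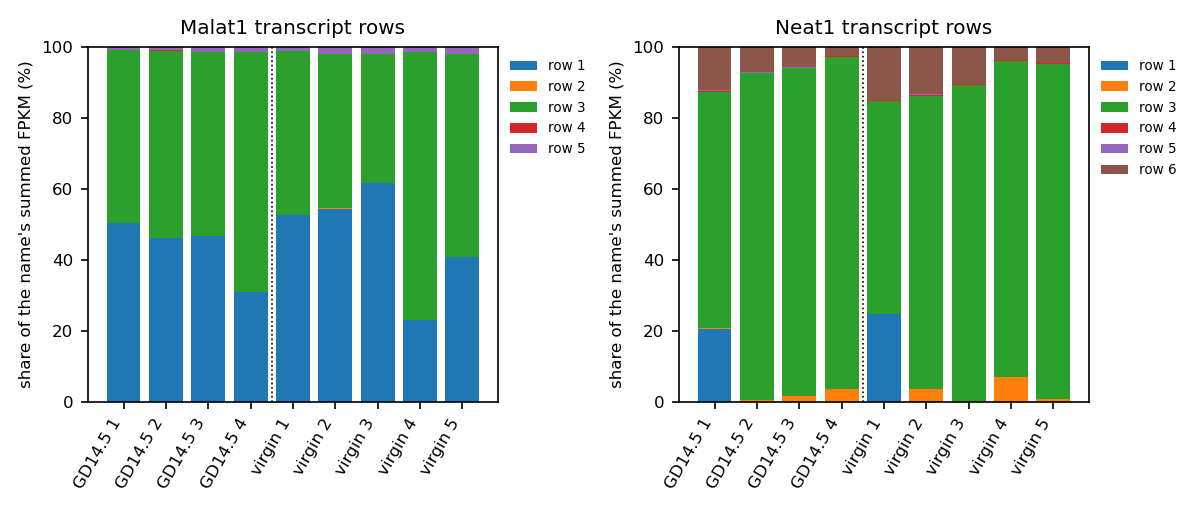
Share of each row in the summed FPKM of Malat1 (left) and Neat1 (right), in percent, with 1 bar per library, GD14.5 left of the dotted line and virgin right of it. Rows 1 and 3 of Malat1 divide nearly all of its level in changing proportion, and row 1 of Neat1 is visible in GD14.5 replicate 1 and virgin replicate 1, at 20.5% and 24.7%.

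Of the 11 rows, 8 passed the limit of a mean of 0.5 FPKM and entered a limma fit over all 2548 such rows of the table. The fit called 3 rows (0.118%), and 0 of the 8 were among them. For the leading rows, GD14.5 over virgin gave log2 differences of −0.38 ± 0.47 for row 1 of Malat1 (SE, limma adjusted p = 0.824), −0.21 ± 0.63 for row 3 of Malat1 (SE, limma adjusted p = 0.885) and 0.17 ± 0.66 for row 3 of Neat1 (SE, limma adjusted p = 0.911), beside a median of −0.30 over all rows. The sign of row 3 of Malat1 depended on the scale. It stood at 0.16 on equal medians, 0.12 with the replicate block (limma adjusted p = 0.872) and 0.38 without the 3 libraries of highest summed FPKM, and at 0.21 and 0.12 without virgin replicate 4 or 5. Row 3 of Neat1 stood at −0.11, −0.12 and −0.19 without GD14.5 replicate 4, virgin replicate 1 or virgin replicate 3. The fit on equal medians called 31 rows (1.22%) and the fit with the replicate block 29 (1.14%), again 0 of the 8. Levels of the groups did not overlap for 18 of all tested rows (0.706%), and 0 of the 8 were among these.

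Shares were tested as log2 of a row over the summed other rows of its gene, across 1613 rows. Both terms had 0.5 FPKM added, so library scale enters the values of low rows. The fit called 5 rows (0.310%), 0 of them from Malat1 or Neat1, and with the replicate block 6 (0.372%), again 0 of them. Shares of the groups did not overlap for 44 rows (2.73%), and 0 of these belonged to Malat1 or Neat1. Row 3 of Malat1 differed by 0.18 ± 0.44 (SE, limma adjusted p = 0.895), with an interval from −0.79 to 1.16, and its sign turned without GD14.5 replicate 4 (−0.062) or virgin replicate 3 (−0.052). Row 3 of Neat1 differed by 0.41 ± 0.73 (SE, limma adjusted p = 0.852), with an interval from −1.19 to 2.01, and its sign turned without virgin replicate 1 (−0.09). Row 6 of Neat1 differed by −0.48 ± 0.55 (SE, limma adjusted p = 0.783), and by −0.84 to −0.059 with single libraries left out, nearest to 0 without GD14.5 replicate 4 and then without virgin replicate 1 (−0.24). With the replicate block, row 3 of Neat1 differed by 0.78 ± 0.19 (SE, limma adjusted p = 0.229) and row 6 by −0.70 ± 0.20 (SE, limma adjusted p = 0.310). For row 1 of Neat1 the interval of the difference ran from −3.63 to 3.92, that is, a fold of 0.0805 to 15.1.

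Other long noncoding RNAs, most of them known for roles in the nucleus, were set beside Malat1 and Neat1. Of the 23 names listed, 20 were in the table and 18 were tested, and 0 were called, where 0.168% of all loci were. Their log2 fold changes ran from −0.47 to 0.10, 17 below 0 and 1 above, with a median of −0.37 beside −0.30 over all loci. On equal medians 10 lay below 0 and 8 above, with a median of −0.02 beside −0.03 over all loci, and with the replicate block 15 lay below 0 and 3 above. The highest member was Meg3, an imprinted RNA expressed from the maternal chromosome, at 93.0 ± 42.6 FPKM at GD14.5 (SD, n = 4) and 122 ± 65.3 FPKM in virgin islets (SD, n = 5). Rian, from the same imprinted cluster, had 71.3 ± 51.6 FPKM at GD14.5 and 99.9 ± 74.1 FPKM in virgin islets. Xist, the RNA that coats the inactive X chromosome, had 71.8 ± 46.5 FPKM at GD14.5 and 98.9 ± 71.8 FPKM in virgin islets. Norad, a mainly cytoplasmic RNA that binds Pumilio proteins, had 55.4 ± 39.3 FPKM at GD14.5 and 80.4 ± 61.4 FPKM in virgin islets. The limma adjusted p-values of these 4 RNAs lay between 0.825 and 0.844.

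A second list held hosts of small nucleolar RNAs and other RNAs that are largely cytoplasmic or quickly degraded. All 17 were in the table, 16 were tested and 0 were called, where 0.168% of all loci were, 9 with a log2 fold change below 0 and 7 above, at a median of −0.05 beside −0.30 over all loci. On equal medians 3 lay below 0 and 13 above, at a median of 0.30 beside −0.03, and with the replicate block 4 lay below 0 and 12 above. Snhg3 had 69.4 ± 17.7 FPKM at GD14.5 (SD, n = 4) and 62.3 ± 22.1 FPKM in virgin islets (SD, n = 5), and Gas5, a host of many small nucleolar RNAs, had 53.0 ± 29.0 FPKM at GD14.5 and 50.7 ± 34.7 FPKM in virgin islets. Snhg20 had 13.6 ± 8.39 FPKM at GD14.5 and 23.0 ± 16.4 FPKM in virgin islets, and Snhg8 had 15.01 ± 4.86 FPKM at GD14.5 and 18.1 ± 9.13 FPKM in virgin islets. The limma adjusted p-values of these 4 lay between 0.817 and 0.876.

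Genes for proteins of the bodies that these RNAs occupy were hardly represented. A row under the name of a coding gene need not hold its messenger RNA, and which RNA it holds was not checked. Of 19 paraspeckle protein genes, the name Sfpq alone was in the table, at 0.230 ± 0.328 FPKM at GD14.5 (SD, n = 4) and 0.136 ± 0.114 FPKM in virgin islets (SD, n = 5), under the limit for the test. Of 20 nuclear speckle protein genes, Srsf1 was listed at 0 in all 9 libraries, and the row named Srrm2, the gene of a large scaffold protein of speckles, had 4.86 ± 2.55 FPKM at GD14.5 and 3.54 ± 1.52 FPKM in virgin islets. Its log2 difference came to 0.34 ± 0.49 (SE, limma adjusted p = 0.817). The other members of both lists were not in the table, and nor was any of the 15 genes listed around the locus.

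Across the 9 libraries Malat1 and Neat1 did not share a pattern closely. After each library's median was subtracted, their Pearson correlation was 0.60, against 0.86 on the deposited scale, where library scale is common to all loci. Likeness was ranked over the 271 loci with a mean of at least 5 FPKM, leaving out the locus compared. Neat1 stood at place 136 in likeness to Malat1, and Malat1 stood at place 35 in likeness to Neat1. The 5 loci most like Malat1 were A730017L22Rik (0.97), Gnaq (0.97), Xist (0.97), 2900005J15Rik (0.97) and Norad (0.96). All of them were high in GD14.5 replicate 4 and in virgin replicates 4 and 5. The 5 loci most like Neat1 were Gas5 (0.87), A230051N06Rik (0.84), Snhg12 (0.79), Gm52861 (0.78) and Taok3 (0.77), and all were low in virgin replicate 3. These correlations describe 9 points that share their libraries and carry no test. Gnaq and Taok3 are names of coding genes, and which RNA of those loci the rows hold was not checked.

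**Figure D5:**
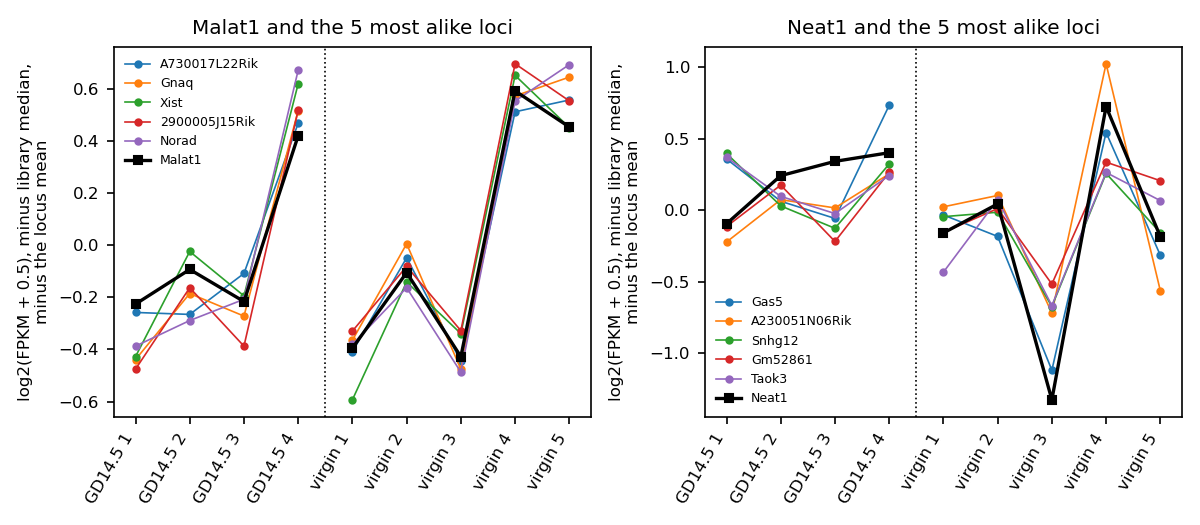
Level of Malat1 (left) and Neat1 (right), black squares, with the 5 loci most like each in coloured points, as log2(FPKM + 0.5) after subtraction of the library's median and the locus's mean. GD14.5 libraries are left of the dotted line and virgin libraries right of it, and lines only join the points of a locus; Malat1 and its companions are high in GD14.5 4, virgin 4 and virgin 5, while Neat1 is lowest in virgin 3.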

How the data were processed

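Islet RNA of 4 GD14.5 and 5 virgin female mouse libraries was enriched on oligo(dT) beads, per the labels' protocols. The authors deposited FPKM per transcript, rounded to 2 decimals, with gene names and no transcript identifiers. Per the submitters' processing notes, reads were placed on GRCm38.p6. The sources used here name no aligner, quantifier, annotation or strand setting.

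Of 26375 rows, 480 whose names end in a numeric copy suffix were left out. FPKM were summed per name. Loci and rows with a mean of at least 0.5 FPKM were tested with limma 3.58.1 (R 4.3.3, empirical Bayes with trend, two-sided) on log2(FPKM + 0.5), with Benjamini-Hochberg adjustment over all of them. Changes of low rows come out too small on this scale. Ratios and shares of the table were compared by exact permutation tests over libraries. Scripts were tested on simulated data. The named loci were every Malat1 and Neat1 row, the 5 loci most correlated with each, and up to 4 tested members of highest mean per list. The members and lists were chosen with earlier results of these data known.

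Both groups use the replicate numbers 1 to 4, with no word in the labels on pairing. Deviations from the group means correlated between same-numbered libraries at 0.49, 0.20, 0.28 and 0.59 for numbers 1 to 4, each over 0.1, so a fit with the number as a block stands beside the counts of calls and the leading values that it moves. Some differently numbered pairs were over 0.1 as well. GD14.5 replicate 4 and virgin replicate 5 correlated at 0.49, GD14.5 replicate 1 and virgin replicate 2 at 0.23. GD14.5 replicate 2 and virgin replicate 3 correlated at 0.25, and GD14.5 replicate 3 correlated with virgin replicates 1 and 2 at 0.14 and 0.18. The remaining pairs lay from −0.55 to 0.04. Alternatives covered the pseudocount, the filter, the scale, the block and each library left out.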

Additional observations from a re-analysis of the deposited data

Results flagged for a closer look

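Within each group, a library was singled out where its distance to the nearest other library was too large a part of the group's range by Dixon's test at the 95% level. Of 42 sets of values checked, 7 had such a library, beside about 2.1, or 1 in 20, for normally distributed values by chance alone. The same rows enter the sets as levels, sums and shares, so the sets are not independent. These counts therefore show no excess over chance. GD14.5 replicate 4 stood above the others of its group in Malat1, with a log2(FPKM + 0.5) of 11.70 against 10.30 to 10.52, and in row 1 of Malat1, with 10.01 against 9.30 to 9.40. It is also the GD14.5 library of highest summed FPKM.

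Neat1 row 1 stood apart in GD14.5 replicate 1, with a log2(FPKM + 0.5) of 4.213 against −1 to −0.97 in the others of its group, and in virgin replicate 1, with 4.189 against −1 to −0.92. Its share of Neat1 was 20.51% in GD14.5 replicate 1, against at most 0.00475% in the other GD14.5 libraries, and 24.74% in virgin replicate 1, against at most 0.0230% in the other virgin libraries. In GD14.5 replicate 1 the share of row 3 was low in turn, at 66.67% against 92.2% to 93.7%. The shares of a gene's rows sum to 100%, so the last value follows in large part from that of row 1.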

How the results depend on the processing

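Neither Malat1 nor Neat1, nor any of their rows or row shares, was called in a limma fit under any alternative run, while the number of called loci, rows and shares and several signs moved; the cause was not tested. Against 4 called loci on the deposited scale there were 29 on equal medians, 31 on equal totals, 29 after quantile normalization, 26 with the replicate block, 25 with the replicate block on equal medians and 14 without the 3 libraries of highest summed FPKM, and 3 to 5 when single libraries were left out. Against 3 called rows there were 31, 30, 30, 29, 24 and 23 in the same order, and 3 to 5 with single libraries left out. Against 5 called shares there were 6 with the replicate block, 3 with a mean of at least 1 FPKM, 0 to 6 with single libraries left out, 0 with no filter (341 higher and 247 lower at an unadjusted limma p under 0.05) and 0 without the 3 libraries (39 higher and 52 lower). Quantile normalization says nothing of Malat1, which holds the top rank in every library.

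Malat1 stood at −0.34 on the deposited scale and at 0.033 on equal medians, 0.077 with the replicate block on equal medians and 0.088 without the 3 libraries, and ran from −0.66 to −0.05 over single libraries left out. Neat1 ran from −0.27 to 0.48 over these. The Malat1 share of the table was 0.069 with the leading row in place of the sum, 0.048 without the 3 libraries and −0.15 to 0.030 over single libraries, and that of Neat1 was 0.17 to 0.57, which passed the exact permutation test without virgin replicate 4 alone (p = 0.0286). The Neat1 to Malat1 ratio ran from 0.28 to 0.57 over single libraries (exact permutation p from 0.161 to 0.371), and was 0.35 in the paired form and 0.46 without row 1 of Neat1, an alternative added after the data were seen. Without the 3 libraries the Neat1 share was 0.56 (exact permutation p = 0.1) and the ratio 0.52 (exact permutation p = 0.3).

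Among the rows, the sign turned for row 3 of Malat1 (0.16 on equal medians, 0.069 on totals, 0.26 by quantiles, 0.12 with the replicate block, 0.25 with the replicate block on medians, 0.38 without the 3 libraries), row 2 of Neat1 (0.11 with a pseudocount of 0.1, 0.19 on medians, 0.12 on totals, 0.13 by quantiles, 0.092 without the 3 libraries), row 1 of Neat1 (−0.0078 with the replicate block, −0.11 with the replicate block on medians, −0.020 without the 3 libraries), row 6 of Neat1 (0.033 on medians), row 1 of Malat1 (0.0065 with the replicate block on medians) and row 2 of Malat1 (0.036 without the 3 libraries). Among the shares it turned for row 2 of Malat1 (−0.078 with a pseudocount of 0.1, −0.14 with the replicate block, −0.052 without the 3 libraries) and row 1 of Neat1 (−0.32 with the replicate block, −0.65 without the 3 libraries). With single libraries left out, levels ran from −0.64 to 0.21 for row 3 and −0.61 to −0.12 for row 1 of Malat1, and from −1.05 to 1.29, −0.89 to 0.61 and −0.19 to 0.56 for rows 1 to 3 of Neat1. Shares ran from −0.53 to 0.10, −0.24 to 0.40 and −0.062 to 0.56 for rows 1 to 3 of Malat1, and from −1.43 to 1.44, −0.79 to 0.14 and −0.089 to 1.07 for rows 1 to 3 and −0.84 to −0.059 for row 6 of Neat1.

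FPKM without counts leave the depth unknown, so no counting interval can be given, and rows under 1 FPKM are the least certain.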

Other observations

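The shares of rows 3 and 6 of Neat1 each differed in 1 direction over the same-numbered libraries, which the labels do not pair. Over 4 pairs, an exact sign-flip test allows no p under 0.125. The pattern was noticed in the values. How many of all 1613 rows differed in 1 direction over these pairs was not counted, so the pattern is described without that background. Row 3 took 66.7%, 92.2%, 92.4% and 93.7% of Neat1 in GD14.5 replicates 1 to 4, against 59.9%, 82.7%, 89.2% and 89.1% in virgin replicates 1 to 4, higher at GD14.5 in 4 of 4 pairs. Row 6 took 12.1%, 7.17%, 5.63% and 2.53% at GD14.5, against 14.9%, 13.4%, 10.4% and 3.72% in virgin islets, lower in 4 of 4 pairs. With the replicate number as a block, the log2 of row 3 over the other rows differed by 0.78 ± 0.19 (SE, limma unadjusted p = 0.00434, adjusted p = 0.229) and that of row 6 by −0.70 ± 0.20 (SE, limma unadjusted p = 0.00887, adjusted p = 0.310). Neither passed the adjustment over 1613 rows, and that fit called 6 rows (0.372%). At an unadjusted limma p under 0.05, the same fit had 58 rows higher and 91 lower. The shares of the rows of a gene sum to 100%, so these values are not independent of each other. Virgin replicate 5, which has no same-numbered partner, had 94.5% in row 3 and 4.58% in row 6.

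Without the 3 libraries of highest summed FPKM, the log2 share of row 1 of Malat1 differed by −0.50 (limma adjusted p = 0.767) and that of row 3 by 0.53 (limma adjusted p = 0.738), on 3 GD14.5 and 3 virgin libraries. Rows 1 and 3 make up nearly all of Malat1, so these values mirror each other. The libraries left out are those with the highest ratio of row 3 to row 1.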
